A study of Rattus norvegicus with 6 samples.

Results

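The genes of prostaglandin synthesis, breakdown and reception were followed in RNA-seq libraries of rat articular chondrocytes. They were taken by gene symbol from the deposited gene table, which lists 18420 genes, and all 10 were found: Pla2g4a, Ptgs1, Ptgs2, Ptges, Ptges2, Ptges3, Ptgis, Hpgd, Ptger2 and Ptger4. Of these 10, 9 had enough counts to be tested among 13250 genes, and Ptgis had not. The study asked how a lysate of Nanofat (NFL) acts on primary chondrocytes in which TNF-α, an inflammatory cytokine, models osteoarthritis. Nanofat is the cell fraction that collagenase frees from rat fat, and NFL is made from it by repeated freezing and thawing. The chondrocytes came from male Sprague-Dawley rats, were wild type, were cultured from knee and hip cartilage and were used at the third passage. The TNF-α group (n = 3) was exposed to TNF-α (10 ng/mL) over 6 h, and the TNF-α+NFL group (n = 3) had the same exposure before NFL over 24 h. The labels give a time of 6 h for the first group and 30 h for the second, and if these are the times of harvest, NFL and the later harvest cannot be told apart. Both groups carry TNF-α, and cells without it (the NC group) were not analysed here. The age of the rats, and whether cells of several rats were pooled, are not given in the sources used here.

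Prostaglandins are lipid signals made in 3 steps. A phospholipase A2 frees arachidonic acid from membranes, a cyclooxygenase turns it into prostaglandin H2, and a terminal synthase turns that into prostaglandin E2, prostacyclin or another product. In inflamed cartilage, TNF-α and interleukin-1 are known to induce the cyclooxygenase Ptgs2 and the terminal synthase Ptges, and the prostaglandin E2 they make acts on receptors that raise cyclic AMP and contributes to joint pain. Hpgd begins its breakdown.

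Ptgs2 (Entrez 29527), the inducible cyclooxygenase and a target of nonsteroidal anti-inflammatory drugs, was 16.4% lower with NFL, by the deposited labels (95% confidence interval 9.76% to 22.6%). It was the 1 member of the 9 tested that passed an adjusted p of 0.05, and the call held in 5 of 13 alternatives, among them 1 of the 6 that left out a library. Over all genes tested, 0.204% passed in the same direction and 0.611% in either direction. Ptges, which works downstream of it, had the next smallest p of the members and did not pass. The other 7 tested members had adjusted p-values between 0.608 and 0.978.

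The promoters of Ptgs2, Ptges and Ptgs1 are printed here because the first gene was called, the second came next, and the third is the constitutive counterpart of the first. Each window holds the 250 bases before the RefSeq transcription start in GRCr8, read 5′ to 3′ on the gene's strand, at chr13:64713813-64714062 on the plus strand for Ptgs2, chr3:34586988-34587237 on the minus strand for Ptges and chr3:39981169-39981418 on the plus strand for Ptgs1. Capitals mark every match to 1 of 8 motifs.
Ptgs2: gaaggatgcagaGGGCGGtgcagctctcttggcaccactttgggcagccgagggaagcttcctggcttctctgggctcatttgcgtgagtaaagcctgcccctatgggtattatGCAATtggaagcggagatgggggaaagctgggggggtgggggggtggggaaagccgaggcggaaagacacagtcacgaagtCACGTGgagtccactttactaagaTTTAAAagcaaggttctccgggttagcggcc
Ptges: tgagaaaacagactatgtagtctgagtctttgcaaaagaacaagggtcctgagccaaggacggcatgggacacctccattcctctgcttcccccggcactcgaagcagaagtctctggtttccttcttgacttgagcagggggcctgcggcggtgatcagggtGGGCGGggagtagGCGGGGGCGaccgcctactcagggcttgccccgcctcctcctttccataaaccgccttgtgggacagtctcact
Ptgs1: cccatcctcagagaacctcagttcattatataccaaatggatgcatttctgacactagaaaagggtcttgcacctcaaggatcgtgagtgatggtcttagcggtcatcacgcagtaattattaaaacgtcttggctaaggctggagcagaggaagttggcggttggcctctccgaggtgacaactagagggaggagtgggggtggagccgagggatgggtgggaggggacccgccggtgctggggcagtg
The motifs searched on both strands were the E-box CACGTG, the cyclic AMP response element core TGACG, the C/EBP motif GCAAT, the TATA box TATAAA, the related TTTAAA, the GC box GGGCGG, the Egr1 site GCGGGGGCG and the NF-κB site. The motifs differ in letters and no printed match overlaps another. In the Ptgs2 window the matches were, counted from the start, the GC box at -238 to -233, the C/EBP motif at -136 to -132, the E-box at -55 to -50 and TTTAAA at -31 to -26. The Ptges window held a GC box at -87 to -82 and an Egr1 site at -74 to -66, while the letters of none of the 8 motifs were in the Ptgs1 window. Among 33469 RefSeq promoter windows of the same length, 5.59% held the E-box, 18.2% the cyclic AMP element core, 23.2% the C/EBP motif, 12.9% TATAAA, 12.3% TTTAAA, 30.5% the GC box, 2.45% the Egr1 site and 3.54% the NF-κB site. Windows were found for 8 members, which excludes Ptges2 and Ptgis. The matches are a description of these letters only.

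The libraries were even in depth, with 19344893 to 19725135 estimated counts each. Replicates 1 and 3 of the TNF-α group lay farthest apart on the first principal component, and values without single libraries are given where they change a call. Defining cartilage genes were low, at a mean of 4.29 FPKM for Col2a1, 2.69 for Acan and 2.30 for Sox9, beside 640 for Col1a1, a collagen of fibroblasts and bone. The summed FPKM of 14 chondrocyte markers was 733 to 907 in the TNF-α group and 776 to 855 with NFL, most of it from Prg4 (557 FPKM, log2 fold change -0.14, adjusted p = 0.804) and Col11a1 (233 FPKM, 0.22, adjusted p = 0.0520). The collagens Col2a1 (log2 fold change 0.23, adjusted p = 0.217), Col11a1 and Col9a1 (0.41, adjusted p = 0.486) had all 3 TNF-α+NFL libraries above all 3 TNF-α libraries, a separation shared by 16.8% of all genes tested, and did not pass. Of the 12 chondrocyte markers tested, 8 were higher and 4 lower in sign, the lower ones being Prg4, Comp (log2 fold change -0.08), Hapln1 (-0.08) and Sox5 (-0.02). The summed FPKM of 7 fibroblast markers was 2325 to 2444 in the TNF-α group and 2470.3 to 2514 with NFL, without overlap and with Thy1 the highest of them (1255 and 1341 FPKM). Of these 7, 3 were higher and 4 lower in sign (median log2 fold change -0.02), Lum being lower without overlap (-0.15, adjusted p = 0.187). Of the 9 macrophage markers, 6 were in the table, with a summed FPKM of 54.7 to 56.8 in the TNF-α group and 48.9 to 51.0 in the TNF-α+NFL group, nearly all of it from Cd14 and Cd68. Cd14 was lower in all 3 TNF-α+NFL libraries than in any TNF-α library, as Ptgs2 and Ptges were, and did not pass (log2 fold change -0.17, adjusted p = 0.163). The defining leukocyte genes Ptprc, Csf1r and Lyz2 were below 1 FPKM in every library, but most of their counts lay in TNF-α replicate 1, the library whose omission changes most calls. It held 7 estimated counts of Ptprc against 0 to 2 in the other 5 libraries, 40 of Csf1r against 1 to 7, and 14.95 of Lyz2 against 0. The 8 adipocyte markers summed to 25.6 to 27.4 FPKM in the TNF-α group and 26.4 to 29.4 with NFL, mainly from Fabp4 (16.3) and Cidea (7.46), with Adipoq near 0 (0.0433). The 7 endothelial markers summed to 0.09 to 0.21 FPKM over the 6 libraries. The part of these markers in the results was not tested, and in such bulk samples, fewer cells of a type and less RNA per cell cannot be told apart. In the gene table supplementing the study, the columns that set each group against the NC group put Ptgs2, and nearly all other genes of a shortened copy of it, in the opposite order to the deposited column names, which would turn every direction given here. The directions follow the deposited labels, and which of the orders is right was not tested.

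Per transcript length, the members covered a wide range. Ptges was highest at a mean of 172 FPKM over the 6 libraries (range 160.4 to 186), above 97.5% of the genes in the table. Ptges3 followed at 110.4 FPKM, Ptgs1 at 42.8 and Ptgs2 at 36.1. The ranges of Ptgs1 and Ptgs2 met, at 40.4 to 45.2 and 31.7 to 40.6 FPKM, although Ptgs1 was the higher of the pair in 6 of 6 libraries. Hpgd (16.8 FPKM, range 15.6 to 18.0) and Pla2g4a (15.6, range 14.3 to 16.4) overlapped in the same way, with Hpgd higher in 5 of 6 libraries. Below them stood Ptges2 at 6.79 FPKM, Ptger4 at 3.39, Ptger2 at 0.597 and Ptgis at 0.225, with no overlap between neighbours.

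**Figure D1:**
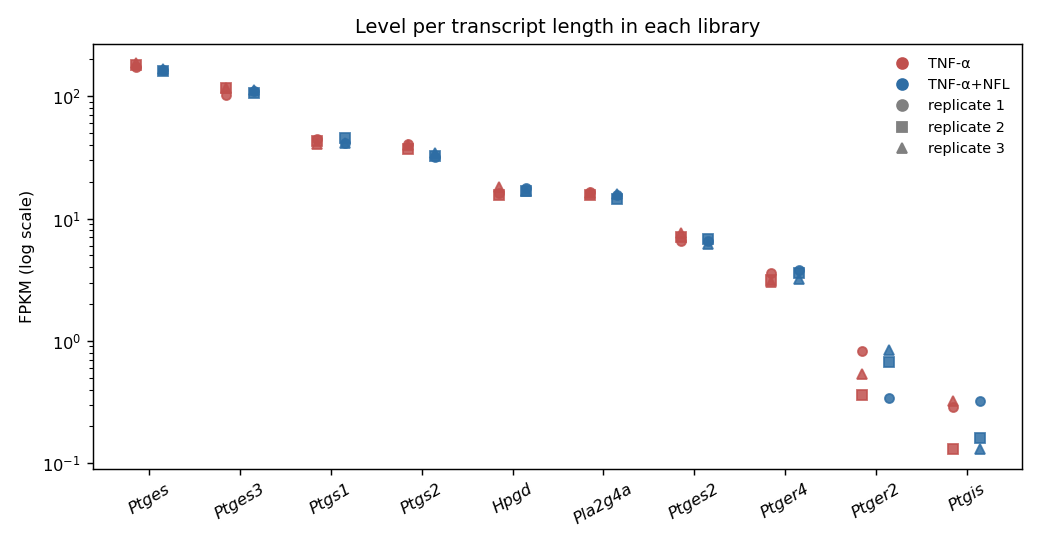
FPKM of the 10 prostaglandin genes on a log axis, with 1 point for each of the 6 libraries coloured by group. Ptges and Ptges3 lie above 100 FPKM, the cyclooxygenases near 40, and Ptger2 and Ptgis below 1.

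Among phospholipases, the secreted Pla2g2a had the highest level (109 FPKM), and the member Pla2g4a (Entrez 24653), the cytosolic phospholipase A2 that supplies cyclooxygenases, had 15.6 FPKM. On the CPM scale, which divides counts by the TMM-adjusted library size, Pla2g4a was at 47.3, 44.1 and 45.6 in TNF-α replicates 1 to 3 and at 44.6, 40.8 and 44.8 in TNF-α+NFL replicates 1 to 3. The groups overlapped, and the log2 fold change of TNF-α+NFL over TNF-α was -0.07 (SE 0.0536, adjusted p = 0.677). Its interval of -0.19 to 0.04 on the log2 scale bounds the difference to between 12.3% lower and 2.99% higher. Pla2g2a stood at 110 ± 4.02 FPKM (SD, n = 3) under TNF-α and 107 ± 18.1 under TNF-α+NFL, with replicate 2 of the latter lowest at 87.6. Of 13 phospholipases listed, 12 were in the table, 9 were tested and 0 passed, 4 higher and 5 lower in sign, with a median log2 fold change of -0.02. Beyond Pla2g2a the next in level was Plaat3, a phospholipase of fat cells, at 17.3 FPKM. The smallest p-values were those of Pla2g15, the lysosomal phospholipase (log2 fold change 0.13, adjusted p = 0.488), and Pla2g4b (-0.17, adjusted p = 0.570).

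Of the cyclooxygenases, Ptgs1 differed little and Ptgs2 was lower in the TNF-α+NFL group. Ptgs2 was at 74.4, 67.3 and 71.95 CPM in TNF-α replicates 1 to 3 and at 57.2, 59.1 and 62.3 CPM in TNF-α+NFL replicates 1 to 3. All 3 TNF-α values lay above all 3 TNF-α+NFL values, with group means of 71.2 ± 3.62 and 59.5 ± 2.59 CPM (SD, n = 3 each). The log2 fold change was -0.26 (SE 0.0511, 95% confidence interval -0.37 to -0.15) and the adjusted p was 0.0393 by the edgeR quasi-likelihood test, the 73rd smallest p of the table. The call was lost with the replicate number as a block (adjusted p = 0.0771), with limma-voom (0.106) and with limma on log2(FPKM + 1) (0.168). The exact permutation test over samples gave p = 0.10, the smallest that 3 against 3 can give. When 1 library at a time was left out, the call held only without TNF-α replicate 1 (adjusted p = 0.00561). It was lost without TNF-α replicate 2 (0.106), TNF-α replicate 3 (0.110), TNF-α+NFL replicate 1 (0.307), TNF-α+NFL replicate 2 (0.273) and TNF-α+NFL replicate 3 (0.106), with the log2 fold change between -0.29 and -0.23 throughout.

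Ptgs1 (Entrez 24693), the constitutive cyclooxygenase, was at 126.9, 121.0 and 113.0 CPM in TNF-α replicates 1 to 3 and at 116.6, 126.8 and 115.6 CPM in TNF-α+NFL replicates 1 to 3. The groups overlapped fully, and the log2 fold change was -0.01 (SE 0.0516, interval -0.12 to 0.10, adjusted p = 0.978). Leaving out a library moved that value between -0.05 and 0.03, across 0. The ratio of Ptgs2 to Ptgs1, taken within each library on the FPKM scale, was 0.907, 0.860 and 0.985 in TNF-α replicates 1 to 3 and 0.758, 0.721 and 0.834 in TNF-α+NFL replicates 1 to 3. All TNF-α ratios exceeded all TNF-α+NFL ratios, by 0.25 on the log2 scale (exact permutation p = 0.10, 0.15 after Benjamini-Hochberg adjustment over 3 ratios). This restates the Ptgs2 difference of -0.26, as Ptgs1 differed by only -0.01, and is not separate evidence.

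**Figure D2:**
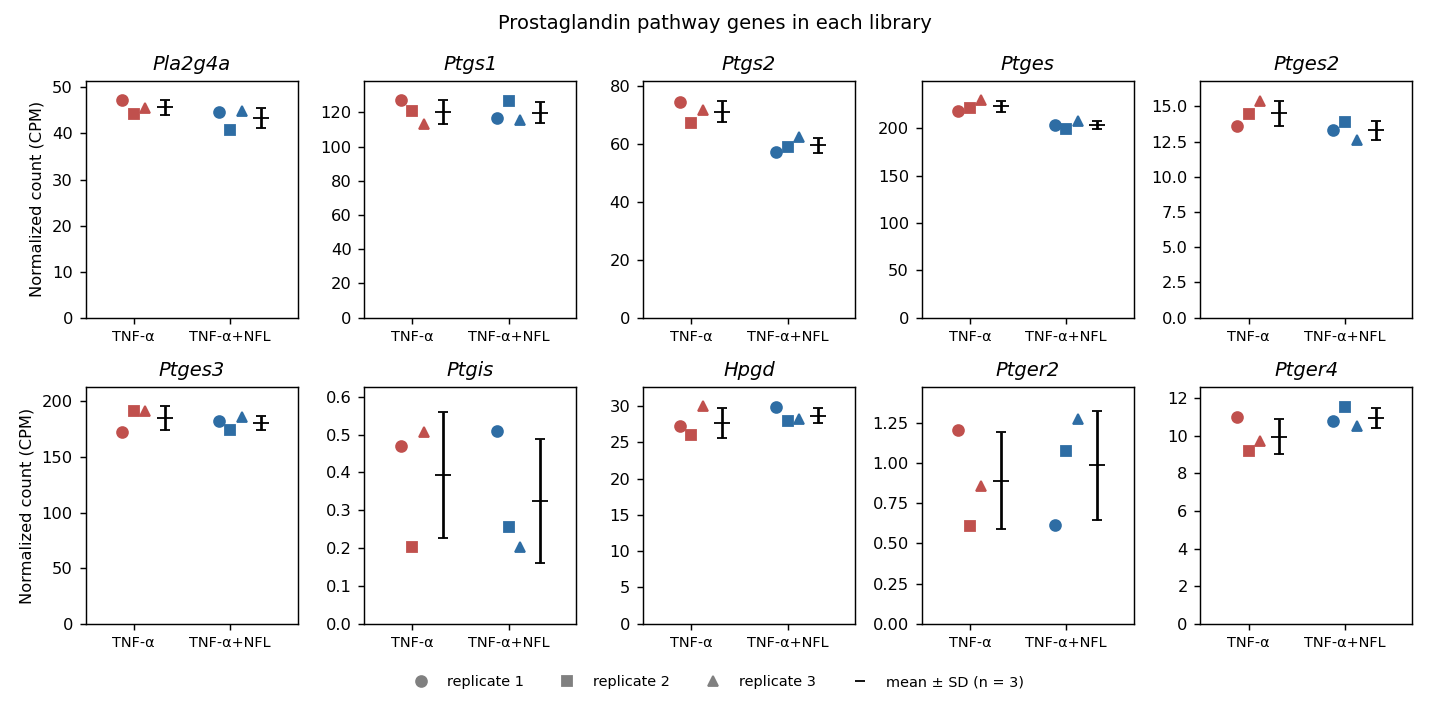
CPM of each of the 10 prostaglandin genes in the 3 TNF-α and the 3 TNF-α+NFL libraries, with group means and SD. The groups are separate in Ptgs2 and Ptges and overlap in the other 8 genes.

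Among the terminal synthases, Ptges had the smallest p. Ptges (Entrez 59103), the microsomal prostaglandin E synthase that is induced together with Ptgs2, was at 217.9, 221.9 and 229.8 CPM in TNF-α replicates 1 to 3 and at 203.3, 199.2 and 207.5 CPM in TNF-α+NFL replicates 1 to 3. The groups did not overlap, at means of 223 ± 6.09 and 203 ± 4.15 CPM (SD, n = 3 each). The log2 fold change was -0.13 (SE 0.0386, interval -0.22 to -0.05), a difference of -8.90%. Its adjusted p of 0.182 did not pass, its unadjusted edgeR p was 0.00401, and the exact permutation p was 0.10. Without TNF-α replicate 1 it passed, at a log2 fold change of -0.15 and an adjusted p of 0.00897, and at an adjusted p of 0.05 it passed in no other of the 13 alternatives. Leaving out that library also raised the number of all genes passing from 81 to 930, of which 460 were higher and 470 lower.

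Ptges2 (Entrez 311865), a membrane-associated prostaglandin E synthase, was at 13.6, 14.5 and 15.4 CPM in TNF-α replicates 1 to 3 and at 13.3, 13.9 and 12.6 CPM in TNF-α+NFL replicates 1 to 3. The groups overlapped through TNF-α replicate 1 (log2 fold change -0.13, SE 0.0784, interval -0.30 to 0.04, adjusted p = 0.608). Ptges3 (Entrez 362809), the cytosolic synthase also known as the Hsp90 co-chaperone p23, was at 172.2, 191.2 and 191.3 CPM in TNF-α replicates 1 to 3 and at 182.1, 174.1 and 185.7 CPM in TNF-α+NFL replicates 1 to 3. Here TNF-α replicate 1 was the lowest of the 6 libraries, and the log2 fold change was -0.03 (SE 0.0476, interval -0.14 to 0.07, adjusted p = 0.867). Its counts were fractional in 6 of 6 libraries, and it has paralogs in the table, so reads may be split between copies. Counts were also fractional for Hpgd in 6 libraries, Ptger4 in 5 and Pla2g4a in 3. RefSeq also has non-coding RNAs overlapping Ptges2, Ptges3, Ptger2 and Ptger4, and whether the counting used strand is not given in the sources used here.

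Ptgis (Entrez 25527), prostacyclin synthase, was close to the floor, at 9, 4 and 10 counts in TNF-α replicates 1 to 3 and 10, 5 and 4 counts in TNF-α+NFL replicates 1 to 3. The summed counts of 23 (exact Poisson 95% interval 14.6 to 34.5) and 19 (11.4 to 29.7) overlapped, the intervals covering counting error only, and no difference was detectable at this depth. Of 6 other synthases, those of prostaglandin D2 (Ptgds, Hpgds) and thromboxane (Tbxas1) were below 1 FPKM in every library and were not tested. The highest was Akr1b1, an aldose reductase with prostaglandin F synthase activity, at 143 ± 8.42 FPKM in the TNF-α group and 135 ± 3.10 with NFL (log2 fold change -0.09, adjusted p = 0.506). Cbr1, a carbonyl reductase acting on prostaglandins, followed at 34.98 ± 3.85 and 32.3 ± 1.01 FPKM (-0.12, adjusted p = 0.576), and Prxl2b, a prostamide and prostaglandin F synthase, was at 4.91 ± 0.727 and 5.27 ± 0.980 FPKM (0.10, adjusted p = 0.895). None of these 3 passed, and Akr1b1 and Cbr1 passed only without TNF-α replicate 1 (adjusted p = 0.0263 and 0.0405), among the 930 genes that passed in that setting.

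Hpgd (Entrez 79242), the dehydrogenase that inactivates prostaglandin E2, was at 27.2, 26.0 and 30.0 CPM in TNF-α replicates 1 to 3 and at 29.8, 27.9 and 28.3 CPM in TNF-α+NFL replicates 1 to 3. The TNF-α group held both the lowest and the highest library (log2 fold change 0.05, SE 0.0642, interval -0.09 to 0.19, adjusted p = 0.854). The ratio of Ptges RNA to Hpgd RNA on the FPKM scale was 10.8, 11.5 and 10.3 in TNF-α replicates 1 to 3 and 9.20, 9.62 and 9.90 in TNF-α+NFL replicates 1 to 3. These ratios did not overlap between the groups (log2 difference -0.19, exact permutation p = 0.10, adjusted p = 0.15). Ptges alone differed by -0.13 and Hpgd by 0.05, so the ratio is not evidence separate from Ptges. The 5 genes listed for transport and breakdown were all tested and 0 passed, 3 higher and 2 lower in sign, with a median log2 fold change of 0.0033. Ptgr1, a reductase that follows Hpgd, was at 39.4 ± 1.93 FPKM in the TNF-α group and 35.6 ± 0.944 with NFL, without overlap (log2 fold change -0.15, SE 0.052, adjusted p = 0.281). The related reductases Ptgr2 (18.6 ± 1.31 and 18.7 ± 0.138 FPKM) and Ptgr3 (2.79 ± 0.254 and 3.08 ± 0.214) had adjusted p-values of 0.961 and 0.651.

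**Figure D3:**
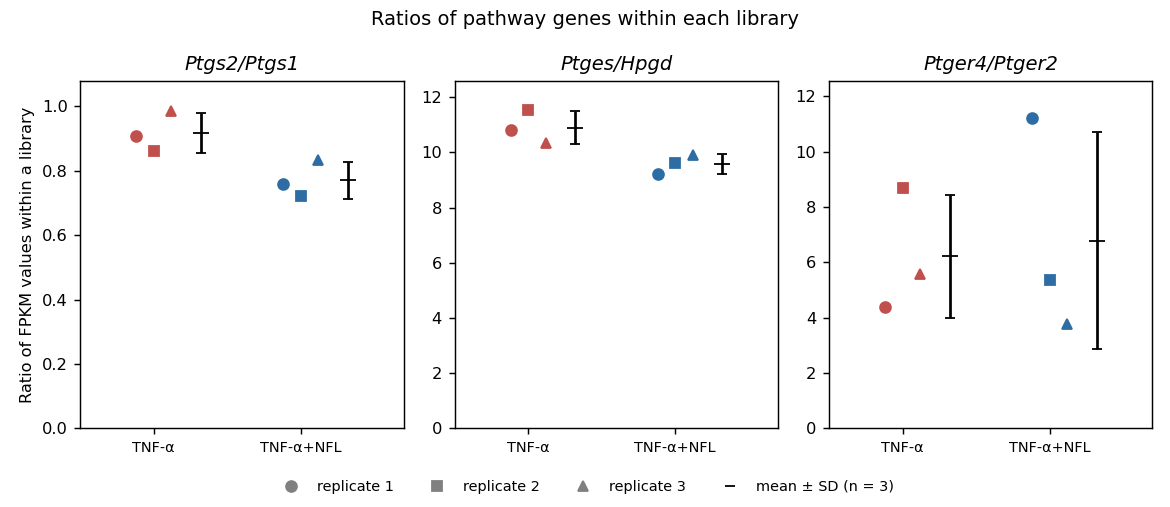
Within-library FPKM ratios of Ptgs2 to Ptgs1, Ptges to Hpgd and Ptger4 to Ptger2 in the 3 TNF-α and the 3 TNF-α+NFL libraries, with group means and SD. The first 2 ratios do not overlap between the groups, at 0.917 against 0.771 and 10.9 against 9.58, and the receptor ratio overlaps. The first 2 largely carry the differences of Ptgs2 and Ptges themselves, and 16.8% of all genes tested did not overlap in CPM.

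The prostaglandin E2 receptors Ptger2 and Ptger4, known as EP2 and EP4, both couple to cyclic AMP production. Ptger4 (Entrez 84023) was at 10.99, 9.16 and 9.71 CPM in TNF-α replicates 1 to 3 and at 10.8, 11.5 and 10.5 CPM in TNF-α+NFL replicates 1 to 3. TNF-α replicate 1 lay within the TNF-α+NFL range, and the log2 fold change was 0.14 (SE 0.0910, interval -0.06 to 0.33, adjusted p = 0.640). Ptger2 (Entrez 81752) had 23, 12 and 17 counts in TNF-α replicates 1 to 3 and 12, 21 and 25 counts in TNF-α+NFL replicates 1 to 3. Both groups reached down to 12 counts, and the log2 fold change of 0.15 had an interval of -0.57 to 0.87 (SE 0.332, adjusted p = 0.924). A difference in Ptger2 was therefore not detectable at this depth, and its sign turned when TNF-α replicate 2 (-0.06) or TNF-α+NFL replicate 3 (-0.07) was left out. The FPKM ratio of Ptger4 to Ptger2 was 6.22 ± 2.22 in the TNF-α group and 6.78 ± 3.92 in the TNF-α+NFL group (n = 3 each, exact permutation p = 1). The effective lengths behind the FPKM varied between libraries for both receptors, from 1450 to 1808 bases for Ptger2 and from 2842 to 3296 for Ptger4, so this ratio also moves with the split of reads over transcripts.

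Of 7 other prostanoid receptors, 6 were in the table, 4 were tested and 0 passed, 3 higher and 1 lower in sign (median log2 fold change 0.03). Ptgfr, the prostaglandin F receptor, was the highest at 10.1 ± 0.818 FPKM in the TNF-α group and 9.90 ± 0.329 in the TNF-α+NFL group. Ptger1, the calcium-coupled prostaglandin E2 receptor, was at 6.93 ± 0.441 and 7.03 ± 0.657 FPKM, and the thromboxane receptor Tbxa2r at 1.72 ± 0.115 and 1.94 ± 0.328 FPKM. Their adjusted p-values were 0.836, 0.961 and 0.780. Over the mean of the 6 libraries, Ptgfr, Ptger1 and the prostacyclin receptor Ptgir (5.4 FPKM) stood above Ptger4 (3.39 FPKM) per transcript length, and Ptger2 far below.

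Over the 9 tested members, 3 had a higher and 6 a lower mean in the TNF-α+NFL group, with a median log2 fold change of -0.03 beside -0.0035 over the 13250 genes tested. Ptgs2 and Ptges, 2 of the 9, had an unadjusted p under 0.05, which 11.1% of all genes tested also had. The same 2 were the members whose groups did not overlap in CPM, as was the case for 16.8% of all genes tested. Besides Ptgs2 and Ptges, the 7 other members gave no call at an adjusted p of 0.05 in any of 13 alternatives, which left out single libraries or changed the filter, scaling or tool. DESeq2 gave no adjusted p for Ptges2, Ptger2 and Ptger4, so that alternative could not call them.

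**Figure D4:**
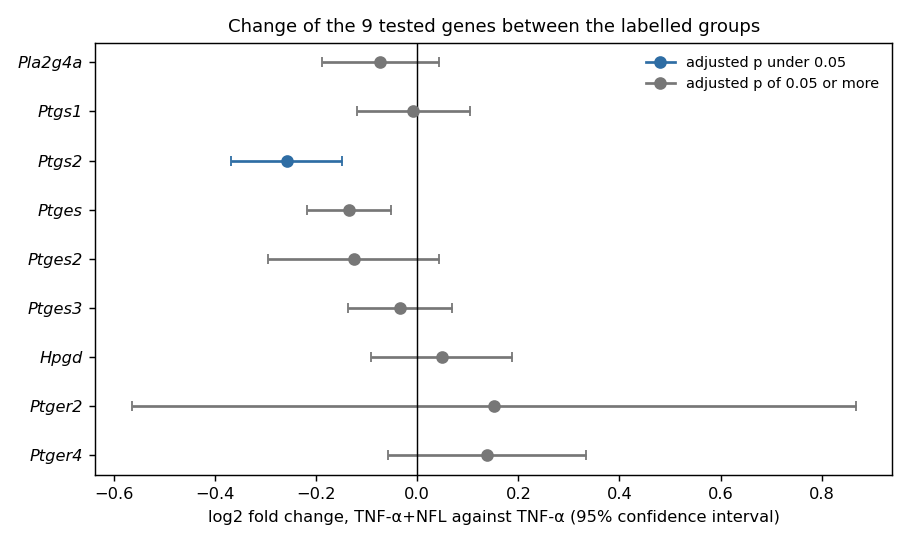
Log2 fold change of TNF-α+NFL over TNF-α for the 9 tested members from the edgeR fit, with 95% confidence intervals. The intervals of Ptgs2 (-0.37 to -0.15) and Ptges (-0.22 to -0.05) lie below 0, Ptgs2 alone passes an adjusted p of 0.05, and the interval of Ptger2 is the widest.

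Among 13 listed regulators of Ptgs2 and Ptges RNA, all were tested and 0 passed, 9 higher and 4 lower in sign (median log2 fold change 0.04). Anxa1, a glucocorticoid-induced inhibitor of phospholipase A2, was the highest at 402 ± 26.6 FPKM in the TNF-α group and 385 ± 3.05 in the TNF-α+NFL group (adjusted p = 0.647). Egr1, a transcription factor with the letters of its site in the Ptges window, was at 191 ± 6.16 and 196 ± 9.31 FPKM (adjusted p = 0.838). Cebpd, a C/EBP factor induced in inflammation, was at 82.8 ± 7.43 and 76.0 ± 1.31 FPKM (log2 fold change -0.13, adjusted p = 0.419). The glucocorticoid receptor Nr3c1 was at 21.8, 20.7 and 21.0 FPKM in TNF-α replicates 1 to 3 and 23.3, 23.4 and 23.5 FPKM in TNF-α+NFL replicates 1 to 3, without overlap (log2 fold change 0.14, adjusted p = 0.181). Anxa1, Cebpd and Nr3c1 passed only without TNF-α replicate 1 (adjusted p = 0.0218, 0.00534 and 0.00317), where 930 genes of the whole table passed in place of 81.

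Cyclic AMP is the second messenger of Ptger2 and Ptger4, and 12 genes known to respond to it were followed. All 12 were tested and 0 passed, 7 higher and 5 lower in sign, with a median log2 fold change of 0.15. Per1, a clock gene with a cyclic AMP response element, was at 9.09, 9.81 and 8.78 FPKM in TNF-α replicates 1 to 3 and 10.3, 10.8 and 10.5 FPKM in TNF-α+NFL replicates 1 to 3, which did not overlap (log2 fold change 0.18, SE 0.054, adjusted p = 0.207). The phosphodiesterase Pde4b, which degrades cyclic AMP, had the highest level of the 12, at 31.5 ± 0.856 and 30.6 ± 0.346 FPKM (adjusted p = 0.763). Areg, a growth factor, was at 0.527 ± 0.121 and 0.360 ± 0.0781 FPKM (log2 fold change -0.54, SE 0.35, adjusted p = 0.634). The leukotriene branch, which uses the same arachidonic acid, was low, with 9 of 10 listed genes in the table and 1 tested. That gene, Lta4h, a hydrolase with wide expression, was at 23.9 ± 0.680 and 23.2 ± 0.658 FPKM (adjusted p = 0.792), and Alox5ap, needed for leukotriene synthesis, had a mean of 0.290 FPKM.

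Over all 7 lists, 66 genes were named, 63 were in the table, 47 were tested and 0 passed by edgeR. Limma-voom called 0 of the 47 as well. DESeq2 also called 0, but it gave no adjusted p for the members Ptges2 and Ptger4, at means of 272 and 204 counts. List genes with so few counts may likewise have had none, and could then not be called. Of the 47, 7 had an unadjusted edgeR p under 0.05, as did 11.1% of all genes tested. Of those 7, 5 were higher (Nr3c1, Tsc22d3, Per1, Nr4a1 and Pde4d) and 2 lower (Ptgr1 and Cebpd) in the TNF-α+NFL group, the names Tsc22d3, Nr4a1 and Pde4d having been added after their values were seen. The 47 were 27 higher and 20 lower in sign, and their median difference was 0.02 on the log2 scale.

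The genes whose log2 CPM followed Ptgs2 most closely over the 6 libraries were Adamts9, a proteoglycan-cleaving metalloproteinase (Pearson r = 0.990, Spearman rho = 1), Smarcd2 (0.984, rho = 1), Parvb (0.984, rho = 0.943) and Rex1bd (0.983, rho = 0.943). Those nearest to Ptges were Mrpl42, the ferritin heavy chain Fth1, Scin and Prdx2, with r between 0.995 and 0.997 and rho of 1 each. Among the members, Ptgs2 had r = 0.867 with Ptges, 0.696 with Pla2g4a, 0.497 with Ptges2 and 0.218 with Ptger2. Its r was 0.103 with Ptges3, 0.0666 with Ptgs1, -0.263 with Hpgd and -0.415 with Ptger4. Ptgs2 and Ptges were both lower without overlap in the TNF-α+NFL group, so a high r between them follows from that group difference. The 6 points are the libraries of both groups and share one scaling. The nearest genes were picked as the highest of 13250, so all these values are a description of these libraries.

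**Figure D5:**
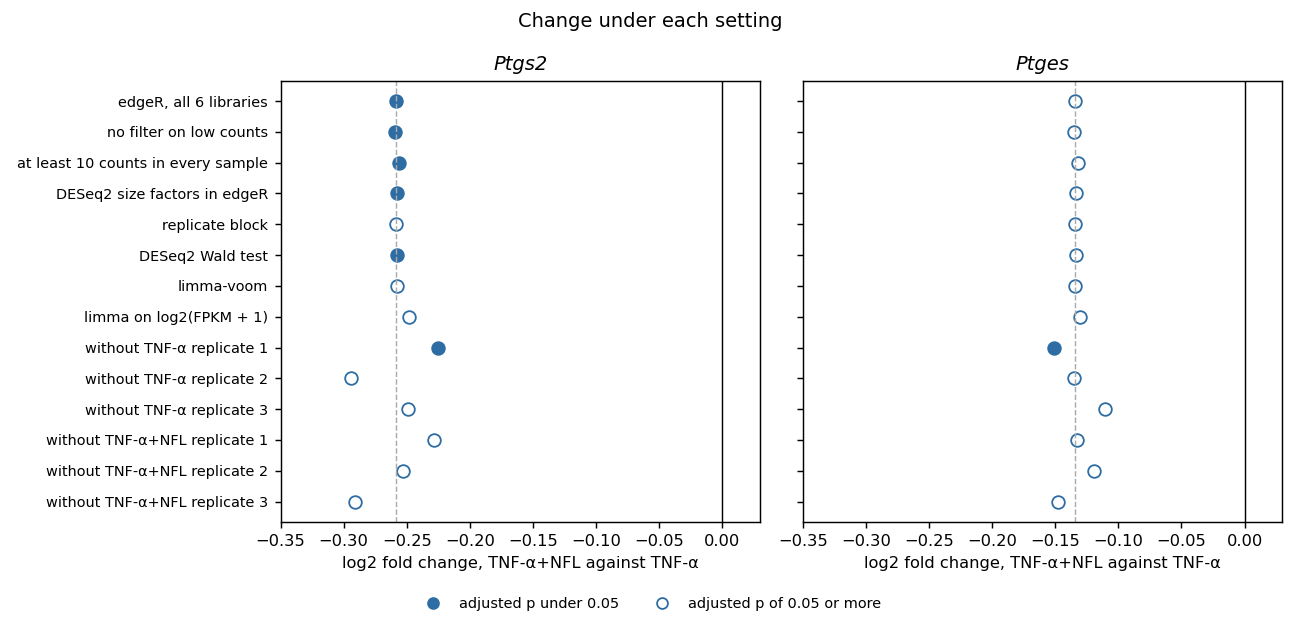
Log2 fold change of Ptgs2 and Ptges (TNF-α+NFL over TNF-α) in the main analysis and in each of 13 alternatives, with filled points where the adjusted p was under 0.05. All values are negative, Ptgs2 passes in 5 of the 13 and Ptges in 1.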

How the data were processed

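RNA-seq libraries of 2 groups, TNF-α and TNF-α+NFL (n = 3 each), were analysed. The authors deposited estimated counts per gene, not normalized, FPKM values, scaled to transcript length and mapped reads, and TPM values, which served only 1 alternative for the ratios. The submitters' processing notes name HISAT2 2.0.4, Bowtie2 2.2.5, RSEM 1.2.12 and the build Rnor 6.0. After rounding of the estimated counts, filterByExpr kept 13250 genes, which were scaled by TMM and compared by the two-sided quasi-likelihood test of edgeR 4.0.16 (R 4.3.3, robust fit), with p-values adjusted over all of them by Benjamini-Hochberg and a biological coefficient of variation of 6.39%. CPM and FPKM ratios were given two-sided exact permutation tests, whose smallest p is 0.10. Total counts per library were 19344893 to 19725135. DESeq2 1.42.0, limma 3.58.1, other filters and scalings, a replicate block and leaving out each library were alternatives. Named genes are the 10 members, in each of the 7 pathway lists the 2 with the highest mean FPKM and the smallest p in each direction, any list gene past an adjusted p of 0.05, and the 4 genes most correlated with Ptgs2 and with Ptges. Marker genes and the few other list genes mentioned (Ptgds, Hpgds, Tbxas1, Ptgir, Tsc22d3, Nr4a1 and Pde4d) fall outside this rule and were chosen after their values were seen. The members and lists were chosen with earlier results of these data known. The study describes its replicates as independent, and if they share an animal the p-values measure only the spread between cultures. RefSeq matched 17068 of 18420 identifiers and 10 of 10 members. Its GRCr8 assembly differs from the files' build and supplied only names, the promoter windows and which genes overlap.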

Additional observations from a re-analysis of the deposited data

How the results depend on the processing

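The members called, 1 in all (Ptgs2), became 0 with the replicate block, 0 with limma-voom and 0 with limma on log2(FPKM + 1), became 2 at an unadjusted p under 0.05, and ranged from 0 to 2 when 1 library was left out. Ptgs2 had a log2 fold change of -0.29 to -0.23 over the 13 alternatives, negative in all, and an adjusted p under 0.05 in 5. Its adjusted p was 0.0133 with no filter, 0.0363 with a minimum of 10 counts, 0.0392 with DESeq2 size factors, 0.0144 with the DESeq2 Wald test, 0.0771 with the replicate block, 0.106 with limma-voom and 0.168 with limma on FPKM. Ptges ranged from -0.15 to -0.11, and its adjusted p from 0.00897 to 0.574. Leaving out a library turned the sign of Ptgs1 (log2 fold change -0.0505 to 0.0333) and Ptger2 (-0.0721 to 0.426), both far from the threshold. The pathway genes called, 0, became 7 at an unadjusted p and ranged from 0 to 5 without 1 library, the 5 being without TNF-α replicate 1. All genes called, 81, became 132 with no filter, 138 with the DESeq2 Wald test, 34 with the replicate block, 35 with limma-voom, 6 with limma on FPKM and 1472 unadjusted, and ranged from 5 (without TNF-α+NFL replicate 1) to 930 (without TNF-α replicate 1). The cause was not tested. Same-numbered libraries deviated together by correlations of 0.03, -0.02 and 0.10, so the numbers were not taken as pairs. The Ptgs2 to Ptgs1 and Ptges to Hpgd ratios kept their direction under every alternative, and the Ptger4 to Ptger2 ratio ranged from -0.41 to 0.38 on the log2 scale without 1 library. DESeq2 gave no adjusted p for Ptges2, Ptger2 and Ptger4. Ptgis and Ptger2 had the fewest counts of the members, 4 to 10 and 12 to 25 a library.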
